A study of Mus musculus with 6 samples.

Results

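Described here are 68 genes for RNA splicing factors and heterogeneous nuclear ribonucleoproteins (hnRNPs), out of 21959 genes in a table of bulk RNA sequencing of the mouse paraventricular thalamus. They were taken by symbol alone, as every gene whose name begins with Srsf and a digit (11 genes for serine/arginine-rich, or SR, proteins), Hnrnp (20 genes), Sf3a or Sf3b and a digit (9 genes), Snrp (12 genes), Prpf and a digit (13 genes) or U2af (3 genes). The paraventricular thalamus is a midline thalamic nucleus, and the labels give all 6 samples as wild-type mouse brain. One group of 3 libraries (replicates 1, 2 and 3) came from mice with chronic constriction injury (CCI), which models neuropathic pain by placing loose ligatures around a nerve, and the other group of 3 (replicates 4, 5 and 6) from untreated mice, called control here. The design text gives 30 mice per group but not how many went into each library. The p-values weigh the difference between groups against the spread between libraries. This spread may therefore be partly technical, and is not known to be that between single mice. Ages are not given in the sources used here.

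Introns are removed from pre-mRNA by the spliceosome, a set of small nuclear ribonucleoproteins (snRNPs). In each, an RNA is bound to a ring of proteins, which in most are Sm proteins, and to proteins of its own. The U1 snRNP recognises the start of an intron, U2AF and the U2 snRNP with its SF3A and SF3B complexes recognise the end and the branch point, and the U4/U6 and U5 snRNPs then join as the tri-snRNP. SR proteins commonly promote the use of nearby splice sites and hnRNPs often repress it, and in neurons their balance sets many alternative exons.

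The RefSeq promoter tables (GRCm38.p6) held a window for 59 of the 68 genes, 80 windows in all. The first 100 bases upstream of the start are shown for 6 genes whose difference between CCI and control passed in every setting tried, each with a single listed start, so that the promoters of genes that moved in opposite directions can be read side by side. Capitals mark exact matches, on either strand, to CGGAAG (the ETS core), GGGCGG (the GC box), CCAAT (the CCAAT box) or CACGTG (an E-box). The letters run 5′ to 3′ on the strand of the gene. Srsf5 (chr12:80945399-80945498, plus strand), Hnrnpl (chr7:28810790-28810889, plus strand), Prpf39 (chr12:65036234-65036333, plus strand) and Prpf4b (chr13:34875429-34875528, plus strand) were higher in CCI, and Hnrnpk (chr13:58402118-58402217, minus strand) and Snrpc (chr17:27839987-27840086, plus strand) were lower.
Srsf5: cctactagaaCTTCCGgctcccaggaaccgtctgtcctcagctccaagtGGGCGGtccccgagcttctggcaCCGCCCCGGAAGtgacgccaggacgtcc
Hnrnpl: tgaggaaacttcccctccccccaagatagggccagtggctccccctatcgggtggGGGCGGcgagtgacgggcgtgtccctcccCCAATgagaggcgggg
Prpf39: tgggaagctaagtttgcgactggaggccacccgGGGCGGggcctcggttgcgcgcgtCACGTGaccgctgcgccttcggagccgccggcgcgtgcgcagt
Prpf4b: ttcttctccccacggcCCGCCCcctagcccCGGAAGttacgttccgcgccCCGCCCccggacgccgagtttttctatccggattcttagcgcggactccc
Hnrnpk: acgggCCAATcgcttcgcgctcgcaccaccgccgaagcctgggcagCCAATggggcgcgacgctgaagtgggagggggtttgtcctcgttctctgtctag
Snrpc: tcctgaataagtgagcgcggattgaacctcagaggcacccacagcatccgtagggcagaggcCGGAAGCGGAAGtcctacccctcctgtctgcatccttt
Adjacent matches abut in Srsf5 and Snrpc. Prpf40b, which also passed in every setting, has 2 starts and is not shown. Of these stretches, those of Srsf5, Hnrnpl, Prpf39 and Prpf4b hold a GC box and those of Hnrnpk and Snrpc do not. Over the 250 bases upstream of every start, the difference was smaller. The GC box was in 12 of 15 windows of genes higher in CCI (80.0%) and in 12 of 21 windows of genes lower in CCI (57.1%). It was in 26 of 43 windows of genes that did not pass (60.5%), near the share of the lower genes, and in 32.7% of all 32851 windows. The ETS core was in 46.2% of the 80 windows and in 13.6% of all windows, the CCAAT box in 46.2% and 33.8%, and the TATA sequence TATAAA in 7.5% and 12.4%. The windows were also richer in G and C, with a median of 60.0% against 52.4% for all windows. Windows of 1 gene overlap, and a match is a description of the letters, not a sign that a factor binds.

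The counts summed to 7989139 to 10529886 in the CCI libraries and 12337448 to 15438268 in the control libraries, and the 68 genes held 0.73% to 0.83% of them. Control replicate 5 stood apart, with a Pearson correlation of log2(FPKM + 1) of 0.973 and 0.976 with the other controls, which correlated at 0.995 with each other. Its level was the highest of the 3 controls in 43 of the 67 tested genes (64.2%), against 43.1% of all genes tested. Fold changes are also given without it where it changed a call or moved a called value by more than 1.5 times, and for further genes with 1 high value there. FPKM is the deposited read count scaled by gene length and library total, and CPM the count scaled by a library total that was adjusted by TMM (trimmed mean of M-values). Changes below are log2 ratios of CCI to control from edgeR, with p-values adjusted over all 14259 genes tested and a threshold of 0.05.

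In CCI, 13 of the 67 tested genes rose, 19 fell and 35 did not pass. Higher levels were found for Hnrnpl, for the SR protein gene Srsf5 and for U1-associated and kinase genes of the Prpf class (Prpf39, Prpf40b, Prpf4b). Lower levels were found for Hnrnpk, Hnrnpll, the Sm ring genes Snrpb, Snrpd3 and Snrpn, and the U1 gene Snrpc. Other Sm ring genes rose (Snrpg, and Snrpf from low counts) or did not pass (Snrpd1, Snrpd2 and Snrpe), and the U1 gene Snrpa did not pass. The share called, 47.8%, was near that of all tested genes, of which 52.3% passed, 27.0% higher and 25.3% lower. Among the 67 genes 19.4% were higher and 28.4% lower, with a median log2 fold change of -0.21 against 0.06 for all tested genes. The libraries of the 2 groups did not overlap in 40 of the 67 genes (59.7%), against 63.0% of all tested genes. So the number of these genes that differed is close to the background of the table. The direction depended on scaling: upper quartile scaling gave 17 higher and 12 lower, and limma on log2(FPKM + 1), a scale with no TMM factor, gave 29 higher and 4 lower. The median of all tested genes moved with it, from 0.06 to 0.27 and 0.42. Without control replicate 5, 18 genes were higher and 21 lower, against 31.5% higher and 30.5% lower of all genes tested there. With the trend of fold change on gene length removed, 10 were higher and 22 lower, against 21.3% and 27.0% of all genes. With the trend on mean level removed as well, the balance was the opposite, with 15 higher and 5 lower, against 18.2% and 19.1% of all genes. Snrpb, Snrpd3 and Snrpn did not pass in that setting. The class medians given below depend on this library, on scaling and on these trends. Without control replicate 5 they were -0.02 for the SR protein genes, -0.04 for the hnRNP genes, -0.25 for SF3A and SF3B, -0.08 for Snrp and 0.07 for Prpf, and on log2(FPKM + 1) all 5 were above 0, from 0.28 (SR proteins) to 0.65 (Prpf). With the length trend removed all 5 were below 0, from -0.51 (hnRNP) to -0.13 (Snrp). With length and mean level trends removed they were 0.11 (SR proteins), -0.04 (hnRNP), 0.04 (SF3A and SF3B), 0.31 (Snrp) and 0.06 (Prpf). In bulk tissue, fewer cells of a type and less RNA per cell cannot be told apart.

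**Figure D1:**
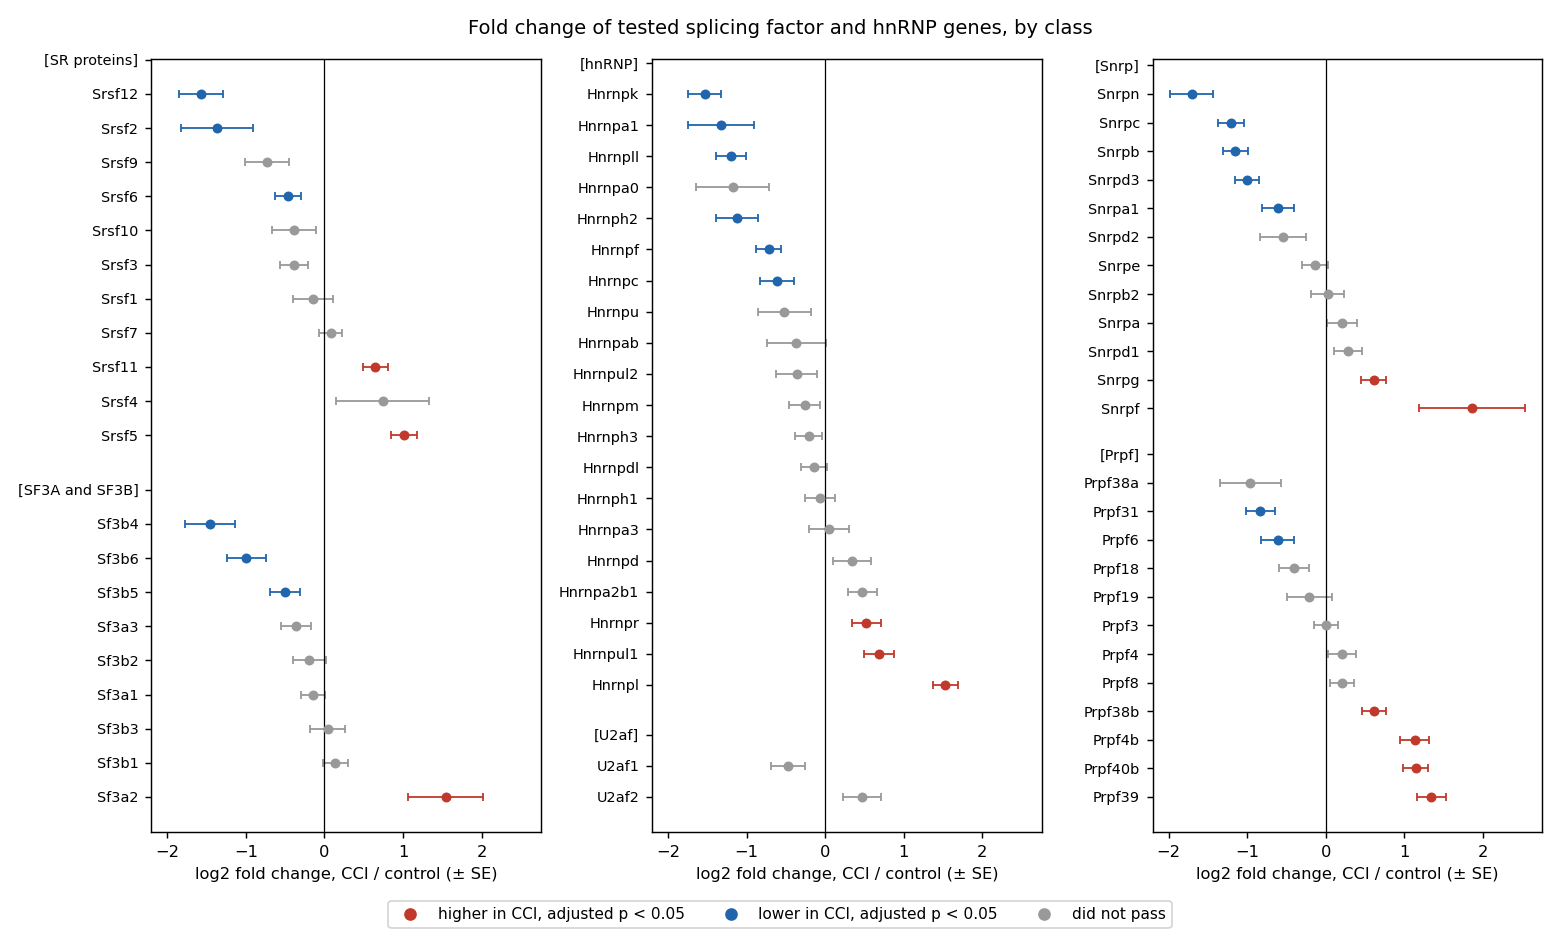
Log2 fold change of CCI over control for tested genes, by class, with the standard error as the bar (x axis, log2). Red points passed an adjusted p of 0.05 as higher, blue as lower (19 genes), and grey did not pass (35 genes). The highest points lie at 1.86 (Snrpf) and 1.54 (Sf3a2), both from low counts, and the lowest at -1.70 (Snrpn).

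Among the 11 SR protein genes, 2 rose, 3 fell and 6 did not pass, with a median of -0.38. Srsf5 (ENSMUSG00000021134, chromosome 12, 80992278 to 80997281, plus strand, GRCm39) encodes an SR protein that binds exonic enhancers. It was at 404, 431 and 395 CPM in CCI replicates 1, 2 and 3 and at 215, 205 and 189.7 in control replicates 4, 5 and 6. Every CCI library lay above every control library, by 2.02-fold in the means, and the log2 fold change was 1.01 ± 0.17 (SE, n = 3 per group, adjusted p = 0.00141 by edgeR). The call held in all 16 alternative settings (0.96 to 2.0). A gene listed as Gm12966 has a near-identical stretch of 813 bases, so reads could be shared between them. Srsf11, which encodes a protein with an arginine- and serine-rich region that acts with U2AF, was at 304, 311 and 296 CPM in CCI and 186, 187 and 209 in control. It rose by 0.65 ± 0.16 (adjusted p = 0.00918), and this call was lost with the length trend removed (0.23, adjusted p = 0.27).

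Srsf12, a short family member reported to act against other SR proteins, fell. It was at 12.3, 13.0 and 18.0 CPM in CCI and 54.2, 26.9 and 47.7 in control, with a log2 fold change of -1.57 ± 0.28 (adjusted p = 0.00224), and on log2(FPKM + 1) it was at -0.83 (adjusted p = 0.0604). Control replicate 5 was the control nearest to the CCI libraries, and the groups did not overlap. Srsf2, the gene of the nuclear speckle protein SC35, was at 173, 201 and 188 CPM in CCI and 254, 914 and 284 in control. Control replicate 5 was thus 3.40 times the mean of the other controls, which lay above all CCI libraries too. The log2 fold change was -1.37 ± 0.46 with it (adjusted p = 0.033) and -0.55 without it (adjusted p = 0.00328), and the call was lost without any 1 of the CCI libraries (adjusted p from 0.0778 to 0.0988). It was also lost with length and level trends removed (-0.20), with the length trend alone removed, with upper quartile scaling and on the FPKM scales. Srsf2 overlaps Mettl23 and Mfsd11 in the annotation, and neither of these passed (adjusted p = 0.821 and 0.618).

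Srsf6, for another exonic enhancer binding protein, was at 88.1, 77.6 and 79.7 CPM in CCI and 128, 93.4 and 116 in control. It fell only narrowly, by 0.46 ± 0.17 (adjusted p = 0.0451), and was at 0.14 on log2(FPKM + 1) and at 0.09 with length and level trends removed. Leaving out any 1 library other than control replicate 5 ended its call (adjusted p from 0.0923 without CCI replicate 1 to 0.14 without CCI replicate 2). Srsf9 was at 16.7, 19.4 and 28.0 CPM in CCI and 26.4, 48.9 and 31.9 in control and did not pass (-0.74 ± 0.28, adjusted p = 0.0523), though it did without CCI replicate 3 (adjusted p = 0.0369) or control replicate 4 (adjusted p = 0.0235). Without control replicate 5 the fold change of Srsf9 was -0.47 (adjusted p = 0.0796). The 2 groups overlapped in Srsf4 (6.11, 10.2 and 7.63 CPM in CCI against 7.50, 0.709 and 5.84 in control, 0.74 ± 0.59, and 0.24 without control replicate 5) and in Srsf7 (122, 117 and 104 CPM in CCI against 109.6, 112 and 102 in control, 0.08 ± 0.15), the SR protein gene with the largest p (adjusted p = 0.665). Srsf1, Srsf3 and Srsf10 did not pass either (-0.15, -0.38 and -0.39), and without control replicate 5 they were at 0.18, -0.29 and -0.02.

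Of the 20 hnRNP genes, 3 rose, 6 fell and 11 did not pass, with a median of -0.31, and without control replicate 5 there were 6 higher and 6 lower. Hnrnpl (ENSMUSG00000015165, chromosome 7, 28507966 to 28521691, plus strand, GRCm39), whose protein binds CA repeats, rose, with the smallest p of the 67 genes. It was at 38.2, 35.5 and 38.5 CPM in CCI and 12.7, 13.1 and 13.0 in control, with little spread inside either group. This was a 2.89-fold difference in means (1.53 ± 0.16, adjusted p = 0.000238), and it held in all 16 alternative settings, from 1.31 to 2.07. No other gene overlaps Hnrnpl or holds a near-identical stretch of it.

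Its paralogue Hnrnpll (ENSMUSG00000024095, chromosome 17, 80336916 to 80369763, minus strand, GRCm39), known for exon skipping in the Ptprc (CD45) transcript of lymphocytes, moved the other way. It was at 34.3, 27.8 and 40.6 CPM in CCI and 76.0, 68.3 and 91.2 in control, with the groups apart (-1.20 ± 0.19, adjusted p = 0.00131). On log2(FPKM + 1) the fold change of Hnrnpll was -0.49 and did not pass (adjusted p = 0.0778). Hnrnpll likewise has no overlapping gene and no near-identical stretch elsewhere.

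Hnrnpk (ENSMUSG00000021546, chromosome 13, 58538956 to 58551157, minus strand, GRCm39) encodes a protein that binds runs of C, and by FPKM it was the most abundant hnRNP gene in both groups. It was at 511, 567 and 466 CPM in CCI and 1386, 1629 and 1453 in control. The CCI mean was 2.90-fold lower (-1.53 ± 0.21, adjusted p = 0.000658), and the call held in all 16 alternative settings, from -1.80 to -0.73. Hnrnpk overlaps Rmi1 on the other strand, which was at 217 to 255 counts in CCI and 236 to 367 in control, and it has near-identical copies listed as Gm4130 and Gm7964.

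Hnrnpf and Hnrnph2, for proteins that bind runs of G, also fell. Hnrnpf was at 57.8, 59.0 and 44.7 CPM in CCI and 90.6, 85.8 and 88.9 in control (-0.72 ± 0.16, adjusted p = 0.00586). Hnrnph2 was at 109.9, 122 and 98.5 CPM in CCI and 195, 349 and 177 in control (-1.13 ± 0.27, adjusted p = 0.00789). In both, every CCI library lay below every control library. Neither call held on the FPKM scales or with length and level trends removed (-0.03 and -0.34). Their relatives Hnrnph1 (-0.07) and Hnrnph3 (-0.21) did not pass, and on log2(FPKM + 1), where they passed, their sign was the opposite (0.53 and 0.38), as it was without a call with both trends removed (0.47 and 0.30). Hnrnpf has 10 near-identical copies in the annotation.

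Hnrnpa1, a classical repressor of exon inclusion, was at 141, 152 and 140.3 CPM in CCI and 207, 664 and 217 in control. As with Srsf2, control replicate 5 was high, at 3.14 times the mean of the other controls, and these also lay above the CCI libraries. The log2 fold change was -1.32 ± 0.42 (adjusted p = 0.0285) and -0.57 without that library (adjusted p = 0.00127). Without any 1 CCI library the call was lost (adjusted p from 0.0721 to 0.0928), as it was with length and level trends removed (-0.25). Upper quartile scaling and the FPKM scales ended the call too. There are 9 near-identical copies of Hnrnpa1 in the annotation. Hnrnpc, for a protein that binds runs of U, fell by 0.61 ± 0.21 (adjusted p = 0.0383), from 243 ± 61.4 to 159 ± 17.7 CPM (SD, n = 3), but was at 0.01 on log2(FPKM + 1) and at 0.24 with length and level trends removed. Its fold change was -0.41 without control replicate 5 (adjusted p = 0.0171), and its call was lost without any 1 CCI library (adjusted p from 0.0571 to 0.135).

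Apart from Hnrnpl, 2 hnRNP genes rose. Hnrnpul1 was at 53.2, 49.8 and 49.8 CPM in CCI and 26.9, 40.7 and 27.7 in control (0.68 ± 0.19, adjusted p = 0.0164). The groups were apart, but the call was lost without CCI replicate 1 (adjusted p = 0.0644), control replicate 4 (0.063) or control replicate 6 (0.0668), and with the length trend removed (0.25). Hnrnpr was at 211, 206 and 191 CPM in CCI and 149, 112 and 161 in control (0.53 ± 0.18, adjusted p = 0.0381), and turned to -0.46 with the length trend removed. It lost its call without any 1 CCI library, and without control replicate 4 (adjusted p between 0.07 and 0.128). Hnrnpa2b1, whose protein carries mRNA into dendrites, was at 296, 290.3 and 359 CPM in CCI and 217, 256 and 208 in control. All CCI values were above all control values, yet it just missed the threshold (0.48 ± 0.18, adjusted p = 0.0522), and it passed without control replicate 5 (0.55, adjusted p = 0.00534).

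Several hnRNP genes that did not pass had 1 high control library. Hnrnpa0 was at 35.7, 38.2 and 47.9 CPM in CCI and 47.3, 177 and 52.4 in control (-1.18 ± 0.47, adjusted p = 0.0612). Without control replicate 5 it was at -0.32 (adjusted p = 0.0878), and it passed only without control replicate 4 or 6 (adjusted p = 0.019 and 0.031), where that library stayed in. Hnrnpu, the scaffold attachment factor gene, was 2.44 times as high in control replicate 5 as in the mean of the other controls (-0.52 ± 0.34, adjusted p = 0.22), and without that library the fold change was 0.02. Hnrnpd, whose protein AUF1 promotes decay of AU-rich mRNA, was at 0.34 with that library and at 0.66 without it (adjusted p = 0.000945). Hnrnpa3 had the largest p of the class, with 44.8, 39.6 and 37.0 CPM in CCI and 28.2, 56.3 and 33.3 in control (0.05 ± 0.25, adjusted p = 0.889), though without control replicate 5 it passed (0.37, adjusted p = 0.0475). It has 36 near-identical copies. Hnrnpab (-0.36), Hnrnpdl (-0.14), Hnrnpm (-0.26) and Hnrnpul2 (-0.36) did not pass, with groups that overlapped. Without control replicate 5 they were at -0.03, -0.04, -0.05 and -0.02, and Hnrnpdl was at 0.46 on log2(FPKM + 1).

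**Figure D2:**
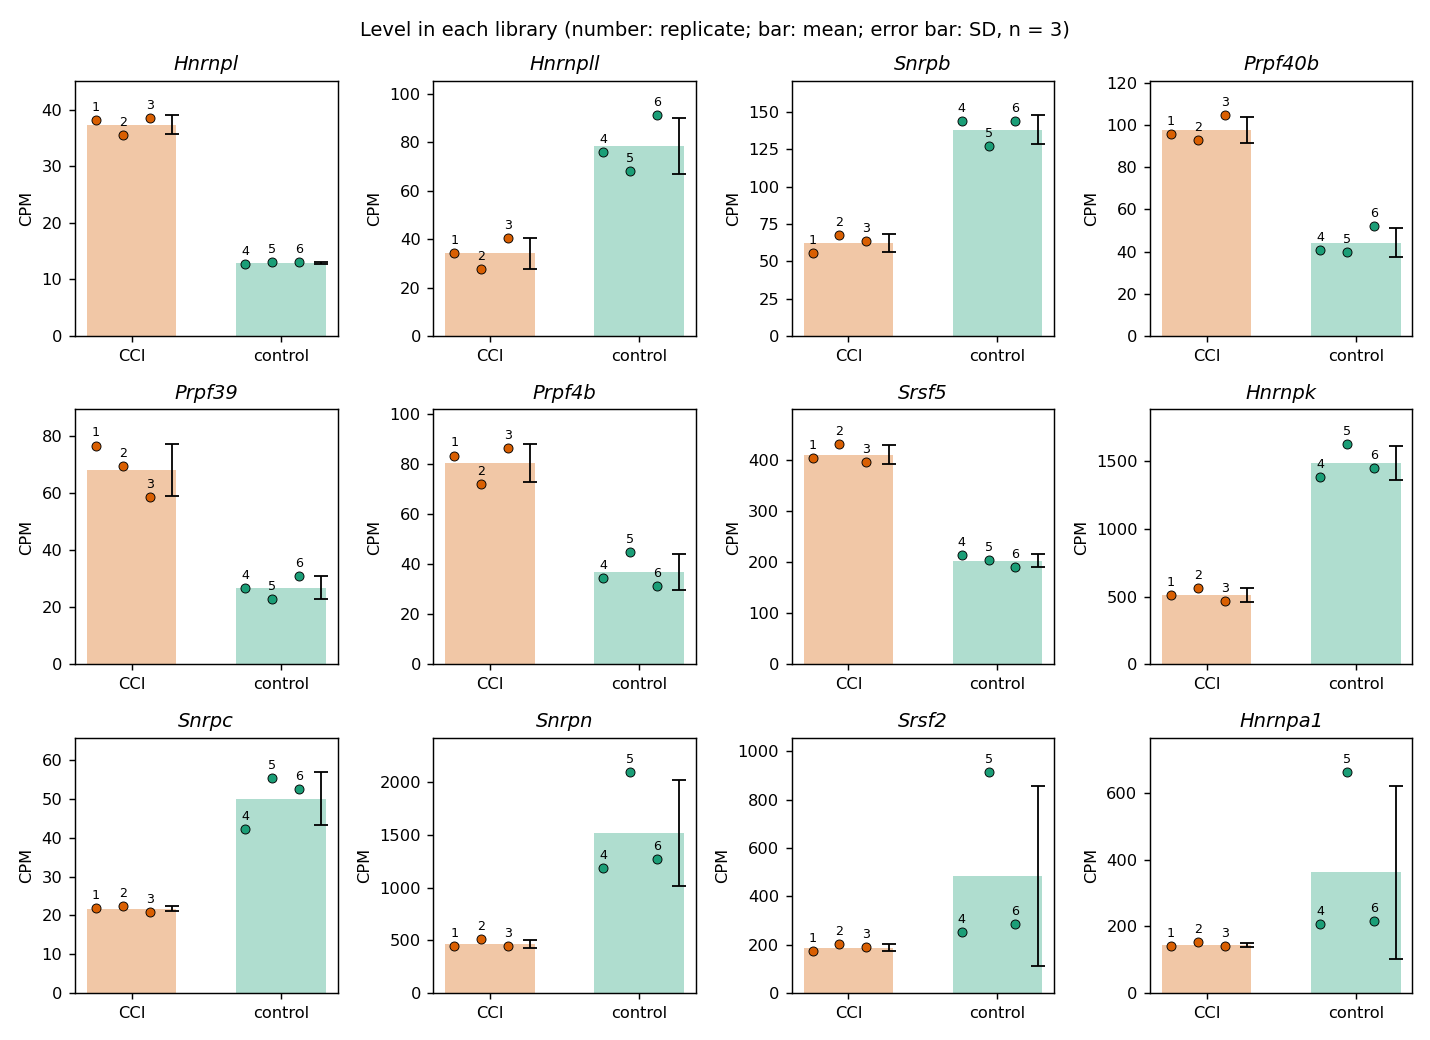
Level of 12 genes in each library, in CPM (y axis, from 0), with the replicate number above each point, the mean as a bar and the SD as a line (n = 3). Hnrnpl and Hnrnpll lie in opposite directions, the Prpf genes and Srsf5 are higher in every CCI library, and control replicate 5 is far above the other controls for Srsf2 (914 CPM) and Hnrnpa1 (664 CPM).

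Of the 9 SF3A and SF3B genes, whose proteins hold the U2 snRNP on the branch point, 1 rose, 3 fell and 5 did not pass (median -0.19). Sf3b4, for a subunit that contacts the RNA upstream of the branch point, was at 20.4, 25.0 and 21.0 CPM in CCI and 82.4, 31.3 and 68.2 in control. Control replicate 5 was the lowest control but still above the CCI libraries (-1.45 ± 0.32, adjusted p = 0.0056). On log2(FPKM + 1) Sf3b4 did not pass (-0.71, adjusted p = 0.161). Sf3b6, for the subunit p14 that sits at the branch adenosine, was at 64.2, 69.0 and 71.0 CPM in CCI and 101, 196 and 110.0 in control (-0.99 ± 0.25, adjusted p = 0.011). Its control replicate 5 was high, without which the fold change was -0.66 (adjusted p = 0.000612), and with length and level trends removed it was -0.16. Sf3b5 was at 54.6, 58.0 and 57.2 CPM in CCI and 61.7, 97.5 and 81.3 in control and passed narrowly (-0.50 ± 0.19, adjusted p = 0.0486), but was at 0.12 on log2(FPKM + 1) and at 0.04 with length and level trends removed. Its call was lost without any 1 CCI library or without control replicate 6 (adjusted p between 0.108 and 0.143).

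Sf3a2 rose from very low counts, 12, 20 and 28 reads in CCI and 8, 2 and 10 in control, which is 0.24 to 2.16 CPM (1.54 ± 0.48, adjusted p = 0.025). Its call was lost on leaving out CCI replicate 2 or 3, or control replicate 4 (adjusted p between 0.0505 and 0.0902), and the stricter filter left the gene out. Sf3a2 overlaps Plekhj1, which was at 404 to 583 reads in CCI and 545 to 916 in control, and how reads in the overlap were counted is not given in the sources used here. Sf3b1, the largest subunit and the one that clasps the branch helix, was at 268, 259.7 and 240.4 CPM in CCI and 235, 238 and 224 in control. The groups were apart by a small margin that did not pass (0.14 ± 0.16, adjusted p = 0.472). Sf3b3 had the largest p (62.6, 66.3 and 58.6 CPM in CCI against 75.9, 41.3 and 64.9 in control, 0.04 ± 0.22, adjusted p = 0.892, and -0.19 without control replicate 5). Sf3a3 was at 46.4, 44.1 and 35.3 CPM in CCI and 43.9, 64.3 and 53.7 in control and did not pass (-0.36 ± 0.19), nor did Sf3a1 (-0.14). Sf3b2 (-0.19) passed only without control replicate 5 (-0.38, adjusted p = 0.0224).

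Among the 12 Snrp genes, for Sm ring proteins and proteins of the U1 and U2 snRNPs, 2 rose, 5 fell and 5 did not pass, with a median of -0.34. With length and mean level trends removed the balance was the opposite, with 4 higher and 1 lower and a median of 0.31. Their summed level was 970 to 1040 CPM in CCI and 1805 to 2884 in control, and Snrpn had the highest level among them. Snrpn (ENSMUSG00000102252, chromosome 7, 59632243 to 59789967, minus strand, GRCm39) is an imprinted gene, read from the paternal copy, whose protein SmN takes the place of SmB in neurons. It was at 443, 508 and 446 CPM in CCI and 1185, 2096 and 1272 in control, so that all CCI libraries lay below all controls and control replicate 5 was the highest. The log2 fold change was -1.70 ± 0.27 (adjusted p = 0.00132), -1.42 without that library and -0.32 with length and level trends removed, the only setting in which it did not pass (adjusted p = 0.161). Snurf, which shares the transcript with Snrpn, is listed at 0 counts in all 6 libraries. The overlapping gene Gm38393 was at 208 to 273 counts in CCI and 103 to 121 in control, and it rose (1.02 ± 0.19, adjusted p = 0.00277).

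Snrpb (ENSMUSG00000027404, chromosome 2, 130013555 to 130021323, minus strand, GRCm39) encodes SmB, and it fell too. It was at 55.7, 67.5 and 63.8 CPM in CCI and 144, 127 and 144 in control, without overlap (-1.15 ± 0.15, adjusted p = 0.000602). As for Snrpn, only removal of the length and level trends ended the call (-0.27, adjusted p = 0.211). Snrpd3, for another protein of the Sm ring, was at 46.2, 42.4 and 45.0 CPM in CCI and 78.3, 95.6 and 93.4 in control (-1.0 ± 0.15, adjusted p = 0.000957) and did not pass on the FPKM scales or with both trends removed (-0.41, adjusted p = 0.0724). Snrpc (ENSMUSG00000024217, chromosome 17, 28057124 to 28070942, plus strand, GRCm39) encodes U1-C, which steadies the pairing of U1 with the start of the intron. It was at 21.8, 22.4 and 21.0 CPM in CCI and 42.3, 55.3 and 52.6 in control, 2.30-fold lower in the means (-1.20 ± 0.17, adjusted p = 0.000668). The call held in all 16 alternative settings, from -1.48 to -0.50. Snrpc has 3 near-identical copies in the annotation. Snrpa1, for the U2 protein A′, fell by 0.61 ± 0.21 (adjusted p = 0.0339), from 60.5 ± 16.9 to 39.5 ± 1.65 CPM, but was at 0.02 on log2(FPKM + 1). It was at -0.38 without control replicate 5 (adjusted p = 0.0147), and without any 1 CCI library it did not pass (adjusted p from 0.0834 to 0.103).

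The 2 Snrp genes that rose encode proteins of the Sm ring. Snrpg was at 38.4, 35.9 and 42.7 CPM in CCI and 26.7, 26.5 and 23.6 in control, and the groups did not overlap (0.61 ± 0.16, adjusted p = 0.0116). Without control replicate 6 it just missed the threshold (0.55, adjusted p = 0.0536). Snrpf rested on 7, 9 and 24 reads in CCI and 1, 5 and 4 in control (1.86 ± 0.67, adjusted p = 0.0441), and it did not pass without any 1 library other than control replicate 5 (adjusted p from 0.0545 to 0.189). Snrpf overlaps Ccdc38, which had 1 to 10 reads in each library. Snrpd1 was at 103, 105 and 93.3 CPM in CCI and 67.5, 99.8 and 80.6 in control and did not pass (0.28 ± 0.18, adjusted p = 0.209). It passed in 6 of the alternative settings, among them without control replicate 5 (0.41) and with both trends removed (1.16). Snrpa, for U1-A, was at 72.0, 74.1 and 67.6 CPM in CCI and 69.6, 45.7 and 69.9 in control (0.20 ± 0.19, adjusted p = 0.388), and at 0.01 without control replicate 5. Snrpb2, for the U2 protein B″, had the largest p, at 26.8, 34.7 and 29.0 CPM in CCI and 25.5, 38.4 and 25.4 in control (0.02 ± 0.21, adjusted p = 0.936). Snrpd2 (-0.54) passed only without control replicate 4 (adjusted p = 0.0446) and was at -0.10 without control replicate 5. Snrpe (-0.14) did not pass as tested here and was at 0.46 on log2(FPKM + 1).

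The 13 Prpf genes, for pre-mRNA processing factors, had more rises than falls, with 5 higher, 2 lower and 6 not passed, and a median of 0.20. With the length trend removed there were 4 higher and 4 lower, and the median was -0.15. With the mean level trend removed as well there were 5 higher and 0 lower (median 0.06), and on log2(FPKM + 1) 8 higher and 0 lower. Their summed level was 772 to 800.0 CPM in CCI and 611 to 689 in control. On this TMM-adjusted scale Prpf was the only class whose sum lay above control in every CCI library. The adjustment raised the library total of every CCI library and lowered that of every control library. It used factors of 1.211 to 1.251 in CCI and 0.6861 to 0.9003 in control. With it undone, the SR protein and the SF3A and SF3B sums also lay above control in every CCI library. Prpf thus did not stand alone without it. Prpf40b, Prpf39 and Prpf4b were higher in all 3 CCI libraries and held their call in all 16 alternative settings. Prpf40b (ENSMUSG00000023007, chromosome 15, 99192968 to 99214899, plus strand, GRCm39) encodes a U1-associated protein. It was at 95.5, 93.0 and 105 CPM in CCI and 40.6, 39.8 and 52.2 in control (1.14 ± 0.16, adjusted p = 0.000793, 1.02 to 1.74 over the settings). This was 2.21-fold higher in the means.

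Prpf39 (ENSMUSG00000035597, chromosome 12, 65083107 to 65110160, plus strand, GRCm39), for another U1-associated protein, was at 76.8, 69.5 and 58.7 CPM in CCI and 26.8, 22.8 and 31.0 in control. This was 2.54-fold higher (1.34 ± 0.18, adjusted p = 0.000604, 0.73 to 1.89 over the settings). Its overlapping gene Fkbp3 went the other way (-1.38 ± 0.31, adjusted p = 0.00629). Prpf4b (ENSMUSG00000021413, chromosome 13, 35059285 to 35090047, plus strand, GRCm39) encodes a kinase that phosphorylates tri-snRNP proteins. It was at 83.4, 71.8 and 86.2 CPM in CCI and 34.6, 44.8 and 31.1 in control (1.13 ± 0.18, adjusted p = 0.0013, 0.71 to 1.71 over the settings). Prpf38b rose less, from 54.9 ± 6.30 to 84.0 ± 6.21 CPM (0.61 ± 0.15, adjusted p = 0.0101), and lost its call with the length trend removed (0.31, adjusted p = 0.119).

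The other 8 Prpf genes fell or did not pass. Prpf31, a U4/U6 protein, was at 53.8, 54.2 and 55.2 CPM in CCI and 80.8, 124 and 85.6 in control, with narrow CCI values (-0.83 ± 0.19, adjusted p = 0.00668), and with both trends removed it was -0.48 (adjusted p = 0.0803). On the FPKM scales Prpf31 did not pass either, and its weakest value over the settings was -0.19. Prpf6, which joins U5 to U4/U6, was at 48.8, 49.1 and 39.1 CPM in CCI and 82.9, 50.6 and 75.2 in control. It fell by 0.61 ± 0.21 (adjusted p = 0.0372), was at 0.01 on log2(FPKM + 1), and did not pass without any 1 library other than control replicate 5 (adjusted p from 0.074 to 0.128). Prpf38a was at 32.7, 37.5 and 25.4 CPM in CCI and 38.4, 107 and 40.7 in control (-0.96 ± 0.39, adjusted p = 0.0638) and passed without control replicate 4 or 6 (adjusted p = 0.0236 and 0.0362). It rested on control replicate 5, without which it was at -0.34 (adjusted p = 0.0921). Prpf18, which acts in the later step of splicing, was at 37.0, 39.4 and 35.7 CPM in CCI and 43.0, 63.5 and 41.9 in control (-0.40 ± 0.19, adjusted p = 0.111), and at -0.21 without control replicate 5. Prpf3 had the largest p of all, with 23.5, 24.8 and 23.9 CPM in CCI and 23.5, 24.8 and 23.9 in control (0.00 ± 0.15, adjusted p = 0.996), from 235, 272 and 310 reads and 263, 210 and 320 reads. Prpf4 (0.20) did not pass. Prpf8, the core protein of the catalytic centre (0.20), and Prpf19, a ubiquitin ligase (-0.21), passed only without control replicate 5 among the libraries left out (0.28, adjusted p = 0.0451, and -0.49, adjusted p = 0.0348).

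Neither tested U2af gene passed. U2af1, for the subunit that reads the last bases of the intron, was at 102, 103 and 92.4 CPM in CCI and 105, 183 and 124 in control (-0.47 ± 0.22, adjusted p = 0.0988), and it passed without control replicate 4 (-0.66, adjusted p = 0.0295) but not without control replicate 5 (-0.23, adjusted p = 0.127). U2af2, for the subunit that binds the pyrimidine tract, was at 11.2, 10.4 and 11.2 CPM in CCI and 9.28, 5.67 and 8.68 in control (0.46 ± 0.24, adjusted p = 0.133). U2af1l4 had 1 read in CCI replicate 3 and none in the other libraries, and it was not tested.

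Levels per length placed Snrpn first in both groups, at 265 ± 16.7 FPKM in CCI and 557 ± 94.96 in control (SD, n = 3). In control, Hnrnpk (187 ± 12.1), Srsf2 (124 ± 76.1), Hnrnpa1 (87.6 ± 49.2) and Snrpb (61.4 ± 12.5) followed. In CCI, Srsf5 (126 ± 4.41) came next, then Hnrnpk (97.8 ± 8.66), Srsf2 (77.8 ± 4.70) and Snrpd1 (60.2 ± 3.66). Control replicate 5 widened the spread of Srsf2 and Hnrnpa1. Srsf2 lay above Hnrnpa1 in every control library but above Hnrnpk in control replicate 5 alone. Hnrnpa1 lay below Hnrnpk in every control library and above Snrpb in control replicate 5 alone, so the means do not separate it from Snrpb. In control Srsf5 was at 41.6 ± 6.61 FPKM. The FPKM is not scaled by TMM, so these levels give an order within a group.

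The balance between paralogues was compared as the share of 1 partner in their summed FPKM, which does not depend on scaling between libraries. Hnrnpll made up 31.4%, 28.5% and 35.0% of the Hnrnpl pair in the CCI libraries and 75.4%, 72.6% and 78.1% in the control libraries. By FPKM the pair was thus mostly Hnrnpll in every control and mostly Hnrnpl in every CCI library, with means of 31.6% ± 3.24 and 75.4% ± 2.74 (SD, n = 3). On raw counts, which favour the longer transcript, Hnrnpll made up 47.3%, 43.9% and 51.3% in CCI and 85.7%, 83.9% and 87.5% in control, so that CCI replicate 3 held slightly more Hnrnpll reads than Hnrnpl reads. The difference was then -38.2 percentage points in place of -43.8, and without 1 library it was -45.4 to -42.2. Snrpn made up 86.5% ± 0.76 of its pair with Snrpb in CCI and 89.8% ± 3.15 in control. Without control replicate 5, whose share was 93.4%, the difference for Snrpn was -1.48 points in place of -3.29. Hnrnpdl made up 77.6% ± 0.85 of its pair with Hnrnpd in CCI and 83.1% ± 3.11 in control, and Srsf7 made up 55.9% ± 1.62 of its pair with Srsf3 in CCI and 47.9% ± 2.56 in control. For U2af1l4 the share was at or near 0. Of the pairs given here, 4 reached the smallest p that a two-sided exact permutation test of 3 against 3 libraries allows (p = 0.1, and 0.15 adjusted over the 6 pairs tested), which is above 0.05.

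**Figure D3:**
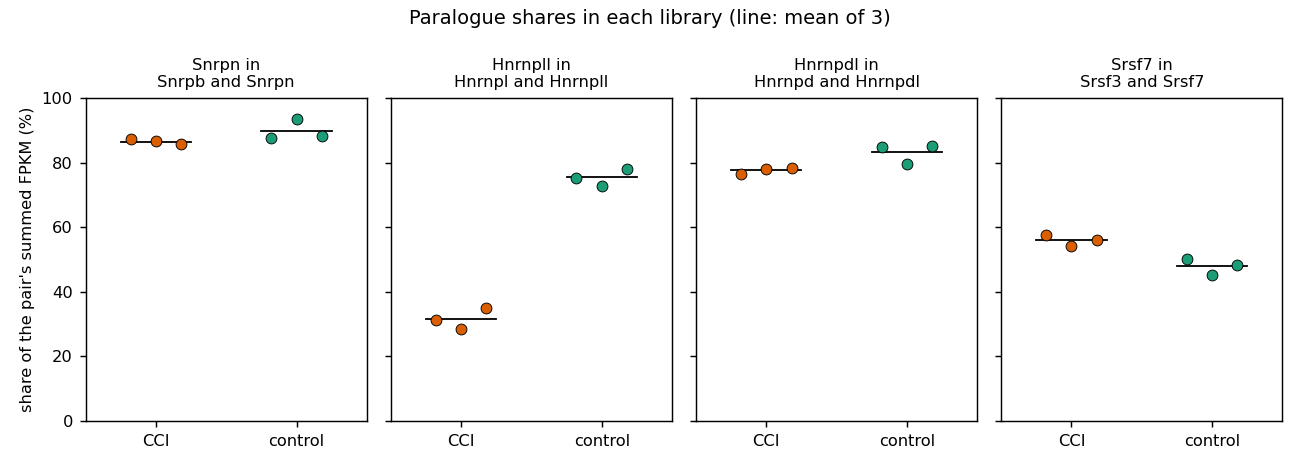
Share of the named paralogue in the summed FPKM of its pair (y axis, percent) in each library, with the mean of 3 as a line. Hnrnpll lies at 28.5% to 35.0% in CCI and 72.6% to 78.1% in control, while the other pairs differ by under 10 points.

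Gene length and level moved with the fold change in the whole table. Over all tested genes the correlation of the log2 fold change with log2 length was 0.249 (Pearson) and with mean log2 CPM -0.447, and over the 67 genes, which share the same libraries, 0.187 and -0.429. Among the longest tested genes (6970 to 123179 bp), 47.7% of all genes were higher and 14.5% lower, and of the 17 splicing genes there 6 were higher and 1 lower. Among genes of 2884 to 4531 bp, 18.6% of all genes were higher and 31.1% lower. Of the 16 splicing genes there, 1 was higher and 10 lower. Among the shortest genes (255 to 2883 bp), 12.7% of all genes were higher and 33.1% lower. Of the 16 splicing genes of that length, 3 were higher and 4 lower. Among genes of 4532 to 6968 bp these shares were 29.2% and 22.4%, and of 18 splicing genes 3 were higher and 4 lower. The counts of splicing genes thus did not follow the length trend of all genes step by step. The part of this trend in the results was not tested beyond the 2 settings that remove it. In those settings Srsf5, Hnrnpl, Prpf39, Prpf40b and Prpf4b stayed higher, and Hnrnpk and Snrpc lower.

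**Figure D4:**
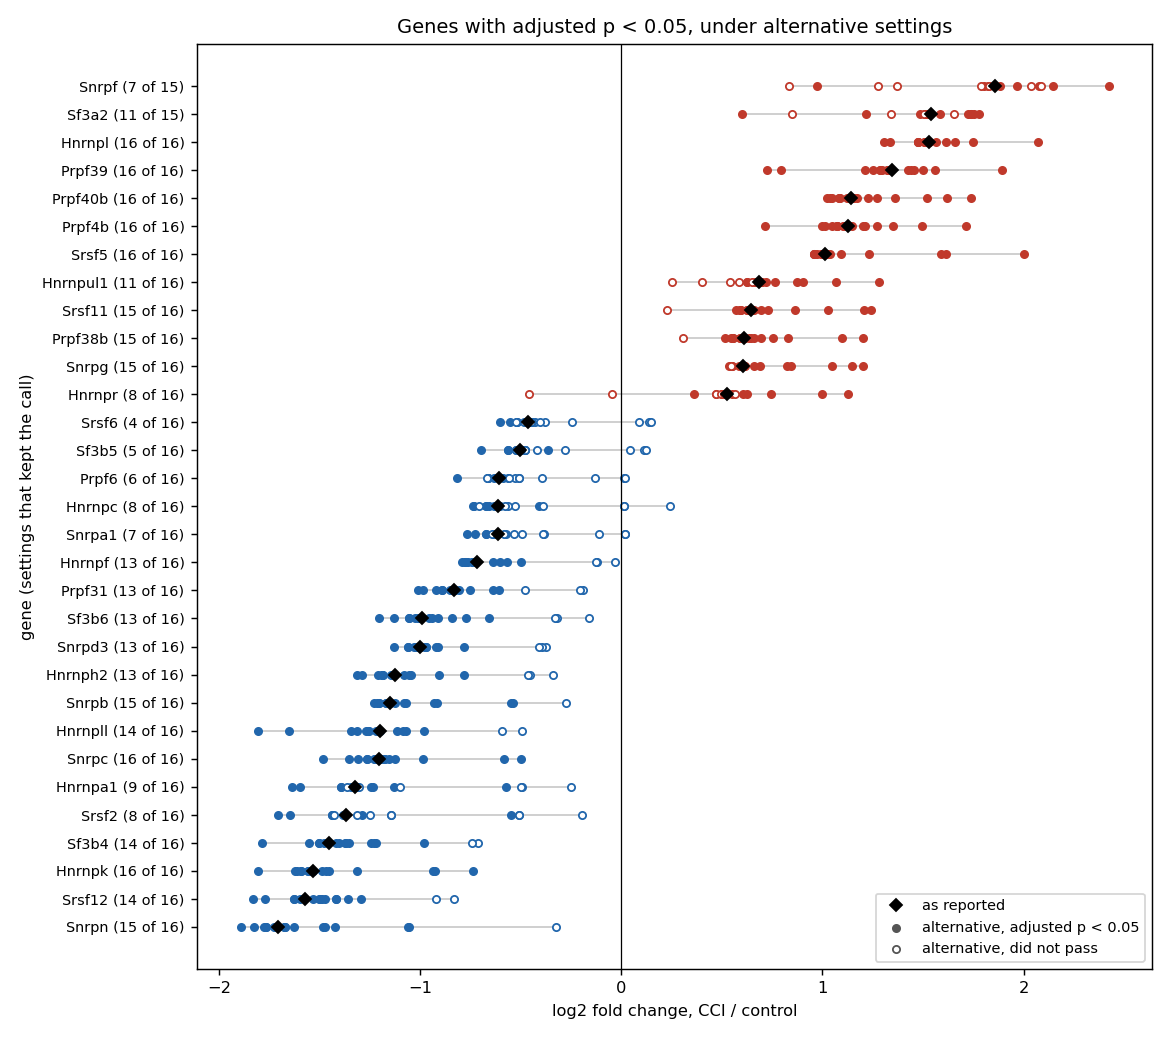
Log2 fold change (x axis) of genes that passed, as reported (diamonds) and under the alternative settings (circles, filled where the adjusted p was under 0.05), with the number of settings that kept the call beside each name. The calls of Srsf5, Hnrnpl, Prpf39, Prpf40b, Prpf4b, Hnrnpk and Snrpc held in all 16 settings, and 6 genes cross 0 in at least 1.

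Other genes of the splicing pathway were counted in lists chosen by function. For comparison, 27.0% of all tested genes were higher and 25.3% lower, and with both trends removed 18.2% and 19.1%. Of 25 snRNP proteins outside the naming pattern, 4 rose, 10 fell and 11 did not pass (median -0.30). The U5 helicase gene Ddx23 (2.39 ± 0.21) and the U1 gene Snrnp70 (1.65 ± 0.20) rose, and the U5 gene Txnl4a (-1.86 ± 0.23) and Lsm6 (-1.10 ± 0.18), of the ring on U6, fell. Of 24 factors of the Prp19 complex and the catalytic steps, 4 rose and 6 fell (median -0.06), among them the helicase genes Ddx46 (1.06 ± 0.19) and Aqr (0.97 ± 0.18), which rose, and Plrg1 (-1.69 ± 0.16) and Bcas2 (-1.06 ± 0.27), which fell. Of 10 genes of the minor spliceosome, which removes a rare intron class, 2 rose and 4 fell (median -0.65). Rnpc3 (2.24 ± 0.20) and Snrnp48 (0.63 ± 0.17) rose, and Snrnp25 (-0.89 ± 0.18) and Zcrb1 (-1.03 ± 0.22) fell. With both trends removed, the lower genes of these 3 lists numbered 2, 3 and 2, and Lsm6, Aqr, Bcas2, Snrnp48, Snrnp25 and Zcrb1 no longer passed. Bcas2 was at -0.69 without control replicate 5 (adjusted p = 0.000689).

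Of 20 SR-related proteins, many of which carry arginine- and serine-rich regions, 10 rose and 2 fell (median 0.57), and 13 were higher and 0 lower with both trends removed. These and the next counts stand beside 27.0% higher and 25.3% lower of all tested genes (18.2% and 19.1% with both trends removed). Pnn (1.52 ± 0.15) and Luc7l2 (1.91 ± 0.19), a U1-associated gene, rose, while Rnps1 (-0.96 ± 0.17) and Tra2b (-0.60 ± 0.20), for an enhancer-binding protein, fell. Of 8 SR protein kinases, Clk2 (1.33 ± 0.26) and Srpk3 (0.96 ± 0.27) rose and Dyrk1a (-1.57 ± 0.47) fell (median 0.14). Dyrk1a was at 154 to 168 CPM in CCI and 237, 902 and 276 in control, and without control replicate 5 it was at -0.71 (adjusted p = 0.00061). With both trends removed 2 kinases were higher and 0 lower, and Srpk3 and Dyrk1a did not pass (adjusted p = 0.0511 and 0.0669). Of 24 hnRNP proteins under other symbols, 7 rose and 7 fell (median 0.15), and 11 rose and 9 fell without control replicate 5. Taf15 (2.44 ± 0.32) rose, and Ralyl (-1.22 ± 0.16) and Rbmxl1 (-1.32 ± 0.20) fell. Of 23 tested regulators of splicing in particular cell types, 5 rose and 4 fell (median -0.10), with Elavl3 (1.05 ± 0.15) and Tia1 (1.27 ± 0.25) higher and Mbnl1 (-1.98 ± 0.25) and Elavl4 (-1.06 ± 0.22) lower. With both trends removed, only 2 of these regulators were higher and 1 lower. Of 15 genes of the exon junction complex and nonsense-mediated decay, which removes transcripts with early stop codons, 7 rose and 1 fell (median 0.50). With both trends removed 5 of them were higher and 0 lower. Smg6 (2.25 ± 0.19) and the kinase gene Smg1 (2.02 ± 0.19) rose, and Eif4a3 (-0.64 ± 0.14), of the exon junction complex, fell. With both trends removed, Rnps1, Tra2b, Ralyl, Elavl4 and Eif4a3 no longer passed, and Tia1 did not with the length trend alone removed. The list of 7 nuclear-retained RNAs had 1 tested gene, Snhg11, which did not pass as tested here but did without control replicate 5 (0.52, adjusted p = 0.0306), on log2(FPKM + 1) and with both trends removed.

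**Figure D5:**
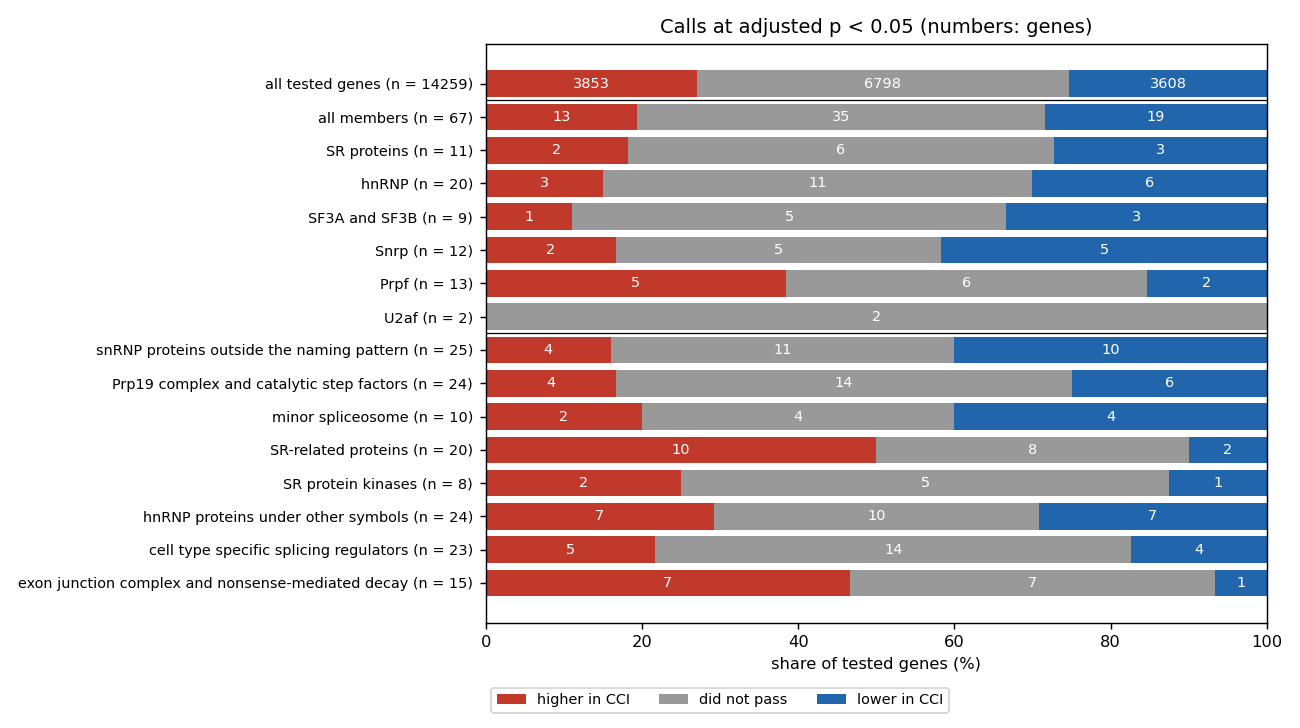
Share of tested genes (x axis, percent) that were higher in CCI, lower, or did not pass at an adjusted p of 0.05, with the number of genes in each bar, for all tested genes, the 67 genes and their classes, and 8 lists of other splicing genes. The Prpf class has 5 of 13 genes higher, the Snrp class 5 of 12 lower, and the SR-related list 10 of 20 higher.

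Markers of cell types differed between the groups, in a table where 27.0% of all tested genes were higher and 25.3% lower. Of 12 markers of thalamic neurons 1 was higher and 8 lower in CCI (summed 2016 to 2776 CPM against 5837 to 8429), and of 10 astrocyte markers 2 were higher and 3 lower (3717 to 4443 against 8276 to 11122). Much of that sum is Aldoc, at 1117 ± 196.7 CPM in CCI and 5333 ± 800.2 in control, while Gfap and Aqp4 rose. Of 11 oligodendrocyte markers 9 were higher and 0 lower (18914 to 24926 CPM against 7294 to 14172), and of 9 precursor markers 7 and 0 (522 to 663 against 153 to 181). Of 11 tested hippocampal and cortical markers 7 were higher and 0 lower (206 to 240.2 CPM against 91.2 to 116), and of 9 tested GABAergic markers 6 and 0 (123 to 439 against 67.3 to 121). CCI replicate 3 was high among the CCI libraries for several of these, such as Dlx1 (14.2 CPM against 1.7 and 1.1) and Neurod6 (57.6 against 4.21 and 3.47). Of 8 habenula markers 0 were higher and 3 lower (223 to 616 CPM against 488 to 1645), of 10 microglia markers 3 and 1 (199 to 262 against 262 to 308), of 10 endothelial and mural markers 4 and 2 (274 to 329 against 337 to 434), and of 6 ependymal and choroid plexus markers 1 and 0 (2034 to 2939 against 314 to 4197). No list had a marker at 0 in both groups. Splicing factor levels differ between cell types, Snrpn being mainly neuronal, and the part of these marker differences in the results above was not tested. Transcripts of the mitochondrial genome made up 1.65% to 1.88% of CCI counts and 0.69% to 1.28% of control counts, and their part was not tested either.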

How the data were processed

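Bulk RNA sequencing of paraventricular thalamus was compared between 3 CCI and 3 control libraries, grouped by the labels. Per the labels' protocols, poly-A RNA was sequenced. The submitters' processing notes name GRCm39, HISAT2 2.1.0, StringTie 2.2.1, HTSeq 0.9.1, fastp 0.22.0 and DESeq 1.38.3, with no strand setting. Per the file headers, the table deposited by the authors gives a read count and an FPKM value per gene and library, and a Length per gene. The deposited FPKM equalled the count divided by Length and column total. The counts were used as deposited.

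The 68 genes were taken by symbol pattern. The genes and all lists were chosen with earlier results of these data known. All genes were fitted together with edgeR 4.0.16 in R 4.3.3 (TMM scaling, filterByExpr, quasi-likelihood F-test), with Benjamini-Hochberg adjustment over all tested genes and calls at 0.05. The standard error was taken as the fold change (log2) over the square root of F. Paralogue shares were tested by a two-sided exact permutation test over libraries. The code was tested on simulated data. Genes were named by a fixed rule: in each class up to 4 with the smallest unadjusted p in each direction and the one with the largest, and in each list up to 2 that passed per direction. Some genes that met the rule are not reported here, though counts include them. Alternatives were DESeq2 1.42.0 size factors and Wald test, upper quartile scaling, no filter, a filter of 5 CPM in 3 libraries, limma 3.58.1 on log2(FPKM + 1) and log2(FPKM + 0.1), limma-voom, removal of spline trends (6 degrees of freedom) on gene length, alone or with mean level, and each library left out in turn. Overlapping genes came from the table. Near-identical copies (at least 95% identity over 200 bases, BLAST 2.17.0) came from GENCODE M21 transcripts (GRCm38), matched by Ensembl gene ID without coordinates. Promoters are RefSeq's (GRCm38.p6), and gene coordinates are the table's (GRCm39).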

Additional observations from a re-analysis of the deposited data

How the results depend on the processing

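Of the 32 genes that passed, 8 passed in the same direction in all 16 alternative settings, among them Srsf5, Hnrnpl, Prpf39, Prpf40b and Prpf4b (higher) and Hnrnpk and Snrpc (lower). The counts over the 67 genes were 29 higher and 4 lower by limma on log2(FPKM + 1) and on log2(FPKM + 0.1) alike. Upper quartile scaling gave 12 lower, removal of the length and mean level trends gave 5 lower, and removal of the length trend alone 10 higher and 22 lower. Without 1 library there were 9 to 18 higher and 12 to 22 lower. Over all genes, limma on log2(FPKM + 1) called 6785 higher and 1374 lower, and on log2(FPKM + 0.1) 6632 and 1345. The FPKM scales shifted the median of all genes to 0.42 and 0.65. Turns of sign are given where the gene passed as reported or in that setting. On log2(FPKM + 1), log2(FPKM + 0.1) and with both trends removed, the sign turned in Srsf6 (0.14, 0.15 and 0.086), Hnrnpc (0.0115, 0.0117 and 0.24), Hnrnpdl (0.46, 0.47 and 0.57), Sf3b5 (0.12, 0.12 and 0.043) and Snrpe (0.46, 0.47 and 0.51). It turned on the 2 FPKM scales in Hnrnph1 (0.53 and 0.55), Hnrnph3 (0.38 and 0.40), Snrpa1 (0.0192 and 0.0207) and Prpf6 (0.0116 and 0.0168). With the length trend removed it turned in Sf3b1 (-0.44) and Hnrnpr (-0.46), and in Hnrnpr with both trends removed (-0.045). The cause of these turns was not tested. Sf3a2 and Snrpf had under 30 reads in every library, and both overlap another gene. No paired analysis was possible because the groups share no replicate numbers.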
